A study of Mus musculus with 26 samples.

Results

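The genes described here encode the proteins of the mitochondrial ribosome, measured by RNA sequencing in mouse brown adipose tissue. They were taken from the deposited expression table as the rows whose symbol starts with Mrpl or Mrps followed by a digit and whose value reached 1 FPKM (a level corrected for transcript length and for the number of mapped fragments) in at least 3 of the 26 libraries. Of 48432 rows, 82 carried such a symbol and 80 passed, comprising 76 genes and 4 processed pseudogenes. The row of lowest mean level that passed was Mrps25, at 4.15 to 6.7 FPKM, and the row just outside was Mrpl23, which reached 0.531 FPKM at most. Mrps36-ps3, the other row outside, was listed at 0 throughout.

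The mice were 2 months old and carried 2 floxed Klf15 alleles in every group, so that the controls were themselves floxed animals. Controls (FF, labelled KLF15 flox/flox) had no Cre, and knockouts (BKO, labelled Ucp1-Cre/+;K15F/F) carried Cre driven by the Ucp1 promoter, a promoter that brown adipocytes use. For either genotype there were 4 conditions. Mice at room temperature were fed or fasted (3 libraries per group), and mice challenged with cold were either not fasted (4 libraries per group) or fasted (3 per group), the last being called cold plus fasting. The strain, the sex and the length of fasting and of cold are not given in the sources used here, and no label says whether a library is 1 animal or a pool, although each carries a number of its own. P-values measure the spread between these libraries.

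Mitochondria translate the few proteins that their own DNA encodes on a dedicated ribosome, whose RNAs come from mitochondrial DNA and whose proteins are all made from nuclear genes and imported. The particle has a small subunit, which decodes the messenger RNA, and a large subunit, which forms the peptide bond. Many of its proteins descend from bacterial ribosomal proteins and others are found only in mitochondria. The products of mitochondrial translation are core subunits of the respiratory chain and of ATP synthase, and brown adipocytes, which burn fuel for heat, hold an unusually large amount of respiratory chain.

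Start-site sequences are shown for 7 members that carry the pattern described below or stand apart from it. Mrps27 and Mrps22 had large falls with fasting, the Mrpl12 protein also binds the mitochondrial RNA polymerase, Mrps11 and Mrpl46 lie head to head, and Mrps26 and Mrpl9 passed no test in any response to fasting or cold. Each run is the RefSeq window of build GRCm38.p6 from 250 bases before to 50 bases after the annotated start, 5′ to 3′ on the strand of the gene. Capitals mark exact matches, on either strand, to the NRF1 motif (GCGCA, then any base, then GCGC), the ETS motif CCGGAAGT of GABPA, the YY1 motif AAGATGGC or the KLF motif CCCCACCC. The motif TCAAGGTCA of oestrogen-related receptors, searched as well, had no match in any of the 67 members with such a window. It was in only 0.353% of the 8793 tested genes with a window and 0.466% of all 27025, so its absence is near those shares. The windows are those of Mrps27 (chr13:99344536-99344835, plus strand), Mrps22 (chr9:98601630-98601929, minus strand), Mrpl12 (chr11:120484387-120484686, plus strand), Mrps11 (chr7:78782881-78783180, plus strand), Mrpl46 (chr7:78783040-78783339, minus strand), Mrps26 (chr2:130563507-130563806, plus strand) and Mrpl9 (chr3:94443086-94443385, plus strand).
Mrps27: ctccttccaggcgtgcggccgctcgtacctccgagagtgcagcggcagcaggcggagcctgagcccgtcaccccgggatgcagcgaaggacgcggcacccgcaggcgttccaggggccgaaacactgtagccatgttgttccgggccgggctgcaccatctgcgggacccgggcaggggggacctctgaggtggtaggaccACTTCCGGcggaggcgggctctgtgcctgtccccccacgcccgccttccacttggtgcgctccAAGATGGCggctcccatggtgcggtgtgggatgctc
Mrps22: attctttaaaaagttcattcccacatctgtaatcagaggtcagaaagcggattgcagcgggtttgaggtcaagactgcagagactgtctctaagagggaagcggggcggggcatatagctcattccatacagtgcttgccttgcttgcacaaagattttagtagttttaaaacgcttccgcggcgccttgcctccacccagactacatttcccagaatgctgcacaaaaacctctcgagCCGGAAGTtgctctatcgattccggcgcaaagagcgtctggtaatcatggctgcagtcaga
Mrpl12: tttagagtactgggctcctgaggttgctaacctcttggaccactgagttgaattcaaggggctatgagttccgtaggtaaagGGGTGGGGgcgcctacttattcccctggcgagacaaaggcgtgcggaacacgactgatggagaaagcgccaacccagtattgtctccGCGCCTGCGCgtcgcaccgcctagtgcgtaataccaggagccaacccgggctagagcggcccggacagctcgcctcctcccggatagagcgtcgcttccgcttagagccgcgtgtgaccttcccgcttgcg
Mrps11: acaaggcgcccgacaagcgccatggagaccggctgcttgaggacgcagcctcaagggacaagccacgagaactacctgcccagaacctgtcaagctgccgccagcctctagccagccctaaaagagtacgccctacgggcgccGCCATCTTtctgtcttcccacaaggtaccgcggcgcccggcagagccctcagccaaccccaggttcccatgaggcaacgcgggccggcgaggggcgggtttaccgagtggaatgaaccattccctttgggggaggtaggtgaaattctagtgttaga
Mrpl46: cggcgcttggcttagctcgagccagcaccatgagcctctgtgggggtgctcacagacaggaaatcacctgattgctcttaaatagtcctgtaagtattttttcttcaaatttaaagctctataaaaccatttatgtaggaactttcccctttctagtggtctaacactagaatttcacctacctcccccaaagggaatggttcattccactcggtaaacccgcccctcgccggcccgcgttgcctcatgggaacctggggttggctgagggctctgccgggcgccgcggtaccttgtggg
Mrps26: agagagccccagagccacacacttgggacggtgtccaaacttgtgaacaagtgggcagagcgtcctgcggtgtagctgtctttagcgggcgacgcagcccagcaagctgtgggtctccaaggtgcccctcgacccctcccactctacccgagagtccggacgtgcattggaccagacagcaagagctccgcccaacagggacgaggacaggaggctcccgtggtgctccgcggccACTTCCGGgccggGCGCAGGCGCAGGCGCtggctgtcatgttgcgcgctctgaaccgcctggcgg
Mrpl9: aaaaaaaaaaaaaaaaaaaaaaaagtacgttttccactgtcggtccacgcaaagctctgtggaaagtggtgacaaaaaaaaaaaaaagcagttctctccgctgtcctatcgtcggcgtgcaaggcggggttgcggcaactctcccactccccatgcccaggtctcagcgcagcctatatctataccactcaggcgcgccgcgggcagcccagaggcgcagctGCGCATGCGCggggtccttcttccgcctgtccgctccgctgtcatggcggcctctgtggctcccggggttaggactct
The window of Mrps27 held an ETS match upstream and a YY1 match just after the start, and that of Mrps22 an ETS match close to the start. The Mrpl12 window held 1 NRF1 and 1 KLF match. The windows of Mrps11 and Mrpl46 overlap by 141 bases, since their annotated starts lie 42 bases apart, and the YY1 match lies in that of Mrps11 only. In Mrps26, 2 overlapping NRF1 matches follow an ETS match, and the NRF1 match of Mrpl9 reads on both strands.

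Among the 67 members with a window, the NRF1 motif was found in 19.4%, against 12.3% of the 8793 tested genes with a window and 5.19% of all 27025 genes with one. The ETS motif was in 17.9% of members, 9.59% of tested genes and 4.31% of all genes. The YY1 motif was in 17.9% of members, 5.6% of tested genes and 3.19% of all genes. The KLF motif was in 10.4% of members, 14.5% of tested genes and 11.3% of all genes. At least 1 of these 4 motifs was present in 39 members and none in 28. These are counts of letters in windows, and a match is not a binding site.

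All 80 rows were detected in every library, with none at 0. Together they held 3434 to 6426 summed FPKM per library, which was 0.885% to 1.28% of all FPKM. The 4 highest rows by mean FPKM were Mrpl34 at 208, Mrpl42 at 197, Mrps21 at 190 and Mrpl30 at 189. The 4 lowest were Mrps25 at 5.61, Mrps26 at 6.08, Mrpl19 at 6.74 and Mrpl57 at 9.42. The proteins form 1 particle, in which all but a few are present as a single copy, while FPKM between the highest and the lowest row differed by more than an order of magnitude.

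The summed level was lowest in the fasted groups. In FF mice it was 4648 ± 167 FPKM (SD, n = 3) fed, 3765 ± 287 (n = 3) fasted, 5027 ± 199 (n = 4) in cold and 5010 ± 188 (n = 3) in cold plus fasting. In BKO mice it was 4819 ± 349 (n = 3) fed, 4163 ± 229 (n = 3) fasted, 5152 ± 145 (n = 4) in cold and 5593 ± 734 (n = 3) in cold plus fasting. The fasted libraries lay at 3434 to 3949 in FF and at 3969 to 4416 in BKO, in each genotype below every library of the other 3 conditions. The high SD of the BKO group in cold plus fasting came from its replicate 3, at 6426, which was the highest library of the study.

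**Figure D1:**
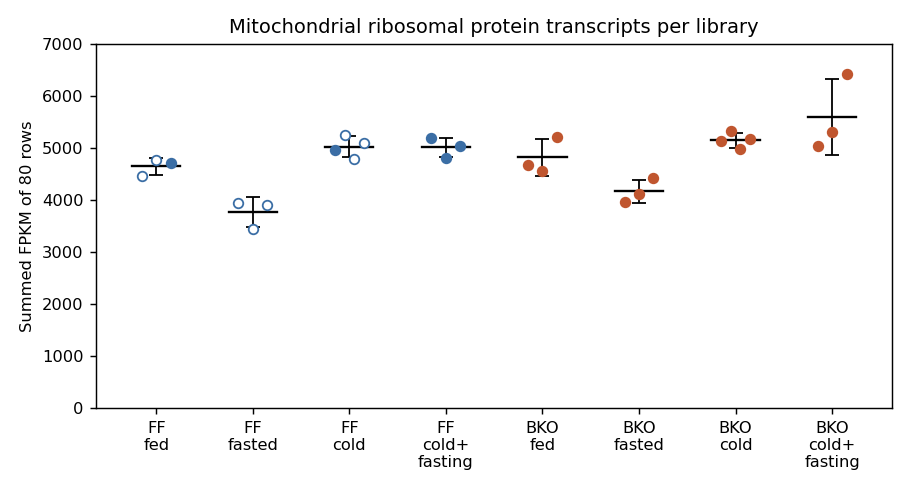
Summed FPKM of the 80 mitochondrial ribosomal protein rows in each library (points), with the group mean (line) and SD (bar), for FF (blue) and BKO (orange). Open points are the 8 libraries numbered 1 to 8 in the labels, filled points those numbered 15 to 32. The fasted groups are the lowest in both genotypes, at means of 3765 and 4163.

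The absolute depth of a library is unknown, since the table holds no counts. A comparison of low values between libraries over 3964 genes placed the relative depth at 0.759 to 1.2, and the number of genes at or above 1 FPKM was 11345 to 11868. The labels number the libraries 1 to 8 and 15 to 32. The first set holds all 3 FF fasted libraries, 3 of the 4 FF cold libraries and 2 of the 3 FF fed libraries, and all BKO libraries and the FF cold plus fasting libraries lie in the second. The difference between fasted FF and fasted BKO therefore cannot be told apart from a difference between these sets. All responses of BKO mice lie within the second set, but its BKO numbers run in blocks by condition. They are 15 to 19 for cold, 21 to 25 for cold plus fasting, 26 to 28 for fasted and 29 to 32 for fed. In the first set FF fasted is at 1 to 3, FF cold at 4 to 6 and FF fed at 7 and 8. Responses to a condition cannot be told apart from differences between such blocks. Klf15, the targeted gene, fell in BKO in every condition: its mean was 28 ± 3.87 FPKM (SD, n = 3) in FF fed and 3.99 ± 1.03 (n = 3) in BKO fed. On the log2(FPKM + 1) scale its BKO minus FF difference averaged -2.04 over the 4 conditions. The loss was smaller in fasted than in fed mice, with a difference of fasting responses of 1.17 ± 0.27 (SE, limma, adjusted p = 0.0425). Brown adipocyte markers were high everywhere, with 7 of 8 summed to 3780 to 6980 FPKM per library (Ucp1 was left out because of zeros that look like failed estimates). Summed skeletal muscle markers varied from 17.9 to 249 FPKM within and across groups.

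Fasting at room temperature lowered a large share of the family in control mice. Of the 80 rows, 47 fell and 0 rose at an adjusted p under 0.05 (limma on log2(FPKM + 1), Benjamini-Hochberg over 12702 genes). That is 58.8% of the rows, against 19.4% of all genes tested that fell. The median log2 difference was -0.31 over the rows and -0.00027 over all genes. In 59 rows all fasted libraries lay below all fed ones, which held for 23.3% of all genes tested. In BKO mice 34 rows fell and 0 rose, 42.5% against 14.6% of all genes, with a median of -0.24. In bulk tissue, fewer cells of a type and less RNA per cell cannot be told apart. Summed brown adipocyte markers were 4270 to 4550 FPKM in FF fed, 3780 to 4610 in FF fasted, 4050 to 4820 in BKO fed and 4520 to 5400 in BKO fasted, and fibroblast markers 148 to 197, 143 to 163, 134 to 209 and 130 to 146. Of 8 summed marker lists, 3 did not overlap between fed and fasted libraries in each genotype. White adipocyte markers, of which Hoxc9, Hoxc10, Tcf21 and Wt1 were below 0.1 FPKM throughout, were at 47.4 to 53 FPKM fed and 25.1 to 38.2 fasted in FF, and at 45 to 81.5 and 20.1 to 30.6 in BKO. In FF erythroid markers were higher fasted, at 226 to 266 against 120 to 188 FPKM, and lymphocyte markers lower, at 3.51 to 4.05 against 5.3 to 9.17. In BKO endothelial markers were higher fasted, at 241 to 276 against 218 to 235 FPKM, and macrophage markers lower, at 87.2 to 99.7 against 108 to 149. The part of these markers in the falls was not tested.

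The falls covered both subunits. With fasting, 31 of the 49 rows of the large subunit and 15 of the 26 of the small subunit fell in FF, and 24 and 10 in BKO. Of the 43 members with a bacterial homologue 30 fell in FF and 21 in BKO, and of the 30 found only in mitochondria 16 and 13. The medians of these groups lay between -0.33 and -0.28 in FF and between -0.26 and -0.21 in BKO. No test of one group of members against another was run.

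The small subunit held the largest fall. Members named here and below for large called differences were picked by a test on these same libraries. That their groups do not overlap is therefore partly built in and adds no support. Mrps27, a pentatricopeptide repeat protein of the small subunit, was at 41.3, 39.2 and 45.4 FPKM in FF fed and at 21.2, 17 and 16.4 in FF fasted. In BKO it was at 40.8, 36.0 and 38.7 fed and at 19.1, 19.5 and 24.1 fasted. The fasted libraries all lay well below the fed ones in both genotypes, and the log2 difference was -1.17 ± 0.10 (SE) in FF (adjusted p = 2.19e-08) and -0.86 ± 0.10 in BKO (adjusted p = 1.94e-06).

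Mrps22, a small-subunit protein mutated in human mitochondrial disease, was at 24.3, 24.8 and 27.8 FPKM in FF fed and 14.8, 14.3 and 11.5 in FF fasted. Its BKO libraries read 27.2, 24.6 and 24 fed and 13.4, 15.5 and 14.3 fasted. Fed and fasted libraries did not overlap in either genotype, with log2 differences of -0.88 ± 0.11 (adjusted p = 3.29e-06) and -0.77 ± 0.11 (adjusted p = 2.67e-05). Mrps6, the homologue of bacterial S6, went from 49.3, 53.6 and 45.2 FPKM to 26, 24.7 and 28.9 in FF and from 51.0, 44.7 and 46.9 to 31, 35.4 and 35.1 in BKO. Neither genotype overlapped between fed and fasted, and the log2 differences were -0.87 ± 0.09 (adjusted p = 3.08e-07) and -0.48 ± 0.09 (adjusted p = 0.000564). The Mrps6 gene shares exon sequence on the same strand with Slc5a3, a myo-inositol transporter gene, which fell in FF from 4.4 ± 1.43 to 1.68 ± 0.554 FPKM (n = 3 each), so reads of the pair can be uncertain.

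In the large subunit, Mrpl12 forms the stalk that contacts translation factors and also binds the mitochondrial RNA polymerase. It was at 125, 139 and 144 FPKM in FF fed and at 86.6, 69.2 and 68.9 in FF fasted. In BKO it was at 136, 127 and 171 fed and at 89.1, 105 and 131 fasted. The groups were separate in FF and overlapped in BKO, where the fall also passed, at a log2 difference of -0.86 ± 0.14 in FF (adjusted p = 3.55e-05) and -0.42 ± 0.14 in BKO (adjusted p = 0.023). Mrpl50, found only in mitochondria, was at 48.9, 44.2 and 57.7 FPKM fed and 31.9, 34.9 and 31.3 fasted in FF, and at 59.8, 49.7 and 45.0 fed and 28.3, 32.1 and 26.7 fasted in BKO. Here the BKO difference was -0.80 ± 0.13 (adjusted p = 8.16e-05) and that of FF -0.60 ± 0.13 (adjusted p = 0.00102).

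Further falls in FF were those of Mrpl18, related to bacterial L18, from 77.9 ± 4.37 to 47.9 ± 1.4 FPKM (n = 3 each), of Mrps2, related to bacterial S2, from 43.6 ± 4.27 to 28.3 ± 6.15, and of Mrpl19 from 6.55 ± 0.169 to 4.13 ± 0.293. In BKO they included Mrpl47, related to bacterial L29, from 13.9 ± 0.118 to 9.14 ± 0.48 FPKM, Mrpl34 from 234 ± 32.7 to 160 ± 15.8 and Mrpl49 from 27.1 ± 0.52 to 19.4 ± 0.428. Mrpl44, which carries a ribonuclease III-like fold, fell in both, from 35.9 ± 2.29 to 26.7 ± 0.715 in FF and from 40.2 ± 2.34 to 31.6 ± 1.05 in BKO.

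Some members did not pass the test. Mrps34, which is needed for the stability of the small subunit, was at 58.1, 55.8 and 69.7 FPKM in FF fed and at 57.8, 58.8 and 69.5 in FF fasted, with the ranges nearly coinciding. Its log2 difference was 0.02 ± 0.14 (adjusted p = 0.922), with a 95% interval from -0.26 to 0.30. Exons of Mrps34 overlap those of Nme3 on the same strand and of Mapk8ip3 on the opposite strand, so its reads can be uncertain. Mrps18a and Mrps18c, 2 of the 3 paralogues related to bacterial S18, had differences of -0.03 ± 0.09 and -0.10 ± 0.08 in FF, and Mrps18b, the third, of -0.10 ± 0.10, each without passing. Mrps30, now placed in the large subunit, had -0.12 ± 0.09. In all, 15 rows passed in none of the responses of either genotype to fasting, to cold, to cold plus fasting, or to cold among fasted mice, which is 18.8% against 27.8% of all genes. These were Mrpl9, Mrpl17, Mrpl24, Mrpl30, Mrpl32, Mrpl33, Mrpl52, Mrps9, Mrps18a, Mrps18c, Mrps24, Mrps26, Mrps28, Mrps30 and the pseudogene row Mrpl23-ps1, of which several are named after their values were seen.

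The falls were shared between genotypes. Both genotypes called 32 rows, 68.1% of the FF list and 94.1% of the BKO list, while over all genes the shared calls were 53.9% and 73.6%. Fasting differences of FF and BKO, which share no library, had a Pearson r of 0.82 over the 80 rows and 0.77 over all genes, as a description across genes. Of the rows called in FF, 15 did not pass in BKO, and the difference between the genotypes' fasting responses passed for 0 of 80 rows, against 0.716% of all genes in either direction. The 4 rows with an unadjusted p under 0.05 for that difference, a threshold that 12% of all genes passed, were Mrps6, Mrpl12, Mrps27 and Mrpl52, all with a response that was higher, that is less negative or above 0, in BKO. The BKO minus FF difference was 0.44 ± 0.19 for Mrpl12 and 0.39 ± 0.13 for Mrps6 on the log2 scale (adjusted p = 0.353 and 0.19).

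**Figure D2:**
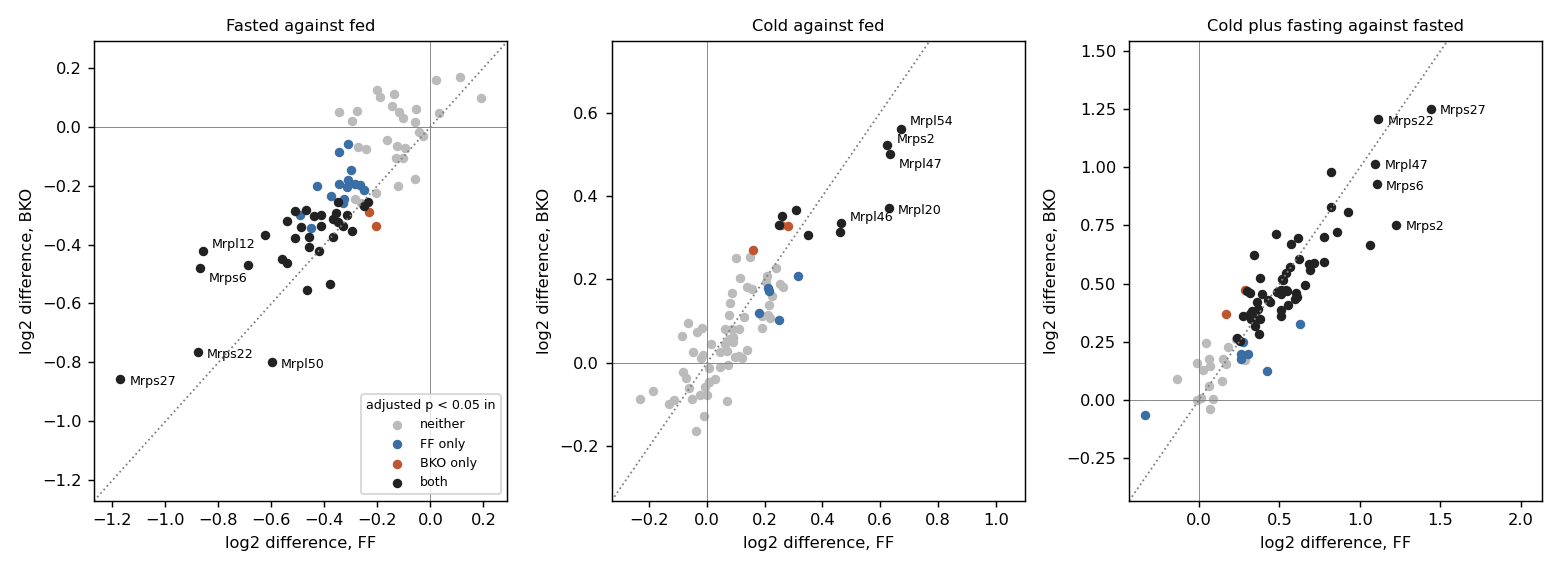
Log2 differences of FPKM + 1 of the 80 rows in FF (x axis) and BKO (y axis) for fasted against fed, cold against fed, and cold plus fasting against fasted. Colours mark in which genotype the row passed an adjusted p of 0.05, and the dotted line marks equal differences. Mrps27 lies at -1.17 and -0.86 in the first panel and at 1.44 and 1.25 in the third.

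Cold with food raised some members. In FF 15 of 80 rows rose and 0 fell, 18.8% against 13.3% of all genes that rose, and in BKO 13 rose and 0 fell, 16.2% against 9.72%. The median log2 differences of 0.09 and 0.08 were small. Mrpl54, a large-subunit protein found only in mitochondria, was at 62.7, 72.7 and 66 FPKM in FF fed and at 112, 108, 103 and 106 in FF cold. In BKO it was at 68.4, 64.2 and 76.4 fed and at 106, 105, 107 and 94.9 in cold. All cold libraries lay above all fed ones in both genotypes, and the differences were 0.67 ± 0.11 (adjusted p = 0.00015) and 0.56 ± 0.11 (adjusted p = 0.00122).

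Mrpl47 rose with cold from 11.3, 11.7 and 12.9 FPKM to 19.8, 20.5, 16.4 and 20 in FF and from 14, 13.9 and 13.7 to 20.1, 20.4, 17.5 and 22.5 in BKO. Its fed and cold libraries did not overlap, which is partly built in for a row picked by its call, as for Mrpl54. Exons of Ndufb5, a complex I gene, and of Actl6a lie opposite those of Mrpl47; Ndufb5 was at 484 ± 25.8 FPKM (n = 3) fed and 473 ± 41.5 (n = 4) in cold in FF, far above Mrpl47. Mrps2 was at 43.6 ± 4.27 FPKM fed and 67.7 ± 3.21 in cold in FF, and at 48.4 ± 1.05 and 70.2 ± 4.62 in BKO. Mrpl20, related to a bacterial protein that acts in assembly, was at 123 ± 13.5 and 190 ± 4.32 in FF and at 151 ± 14.7 and 195 ± 11.1 in BKO. Smaller rises in both genotypes were those of Mrpl36, Mrpl46, Mrps6, Mrps10, Mrps23 and Mrps27, so that 10 rows rose with cold in both, 66.7% of the FF list and 76.9% of the BKO list, where over all genes the shared calls were 53.5% and 77.7%. Rises in both genotypes took in 12.5% of the rows and 7.9% of all genes. The difference of the cold responses between genotypes passed for 0 of 80 rows, with 0 at an unadjusted p under 0.05 (3.4% of all genes), and for 0.00787% of all genes. That of the responses to cold plus fasting also passed for 0 rows, with 1 at an unadjusted p under 0.05 (3.79% of all genes), and for 0.00787% of all genes.

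The cold groups differed in cell type markers as well, and in FF 7 of the 8 summed lists, those other than skeletal muscle, did not overlap between fed and cold libraries. Summed erythroid markers were 120 to 188 FPKM in FF fed and 342 to 601 in FF cold, fibroblast markers 148 to 197 and 95 to 122, and brown adipocyte markers 4270 to 4550 and 5380 to 5770. Lymphocyte markers were 5.3 to 9.17 FPKM in FF fed and 19.2 to 44 in FF cold, endothelial markers 214 to 232 and 257 to 291, macrophage markers 101 to 118 and 83.6 to 93.5, and white adipocyte markers 47.4 to 53 and 24.3 to 34.6. In BKO 4 of 8 lists did not overlap. Brown adipocyte markers were 4050 to 4820 FPKM in BKO fed and 5250 to 5940 in BKO cold, endothelial markers 218 to 235 and 283 to 300, macrophage markers 108 to 149 and 74.5 to 108 (apart before rounding), and fibroblast markers 134 to 209 and 93.4 to 107. The lists that overlapped in BKO included erythroid markers, at 174 to 472 and 415 to 701, and lymphocyte markers, at 5.26 to 14.6 and 10.7 to 14.3. The part of these markers in the rises was not tested. When the comparison of FF cold with FF fed was limited to libraries numbered 15 to 32, which leaves 1 library on each side that is assumed to vary like the other groups, 0 rows passed. With the library number set as a covariate, 14 of the 15 rises in FF still passed. In FF, 8 rows rose without FF fed replicate 1 and 9 without replicate 2, and the BKO count was 6 without BKO fed replicate 2. The BKO comparison, whose 7 libraries all carry such numbers, gave the 13 rises above. With array weights, which give libraries that fit the group means less well a lower weight, 40 rows passed in FF and 23 in BKO.

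With cold plus fasting, the share of rows that rose was near that of all genes in FF and above it in BKO. No difference from cold alone was called. Against fed mice, 12 rows rose in FF, 15% against 11.5% of all genes, and 19 in BKO, 23.8% against 10% of all genes, with 0 falls in either. Mrpl54 was again the largest rise, from 67.1 ± 5.09 to 105 ± 4.34 FPKM (n = 3 each) in FF and from 69.7 ± 6.19 to 125 ± 27.6 in BKO. Without BKO replicate 3 of cold plus fasting, in which Mrpl54 read 155 against 102 and 116, the BKO count was 10 in place of 19, and without BKO fed replicate 1 or 2 it was 12. In FF, 6 rows rose without replicate 1 of cold plus fasting or of the fed group, 7 without replicate 2 of the fed group, 5 with the library number set as a covariate and 1 with libraries numbered 15 to 32 alone. With array weights 38 passed in FF and 29 in BKO. Of the 8 summed marker lists, 5 did not overlap between these groups in FF and 4 in BKO. Brown adipocyte markers were 5270 to 5600 FPKM in FF and 5290 to 6980 in BKO in cold plus fasting, and fibroblast markers 108 to 124 and 111 to 120, against the fed ranges given above. Their part in the rises was not tested. Comparing cold plus fasting with cold, 0 rows passed in FF and 0 in BKO with limma (0 and 7 at an unadjusted p under 0.05, against 2.96% and 8.73% of all genes), where 0% and 0.00787% of all genes passed.

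Set against fasted mice at room temperature, fasted mice in the cold had higher levels of most members. In FF 60 rows were higher, 75% against 26% of all genes, and 1 was lower, against 25.9%, with a median of 0.39. In BKO 56 were higher and 0 lower, 70% against 22.9%, with a median of 0.42. This comparison shares the fasted libraries with that of fasted against fed, so the 2 sets of values are not independent. In FF the fasted libraries are numbered 1 to 8 and those of cold plus fasting 15 to 32, and with that set as a covariate 39 rows passed, all higher. In all, 54 rows rose in both genotypes, 88.5% of the FF list of 61 and 96.4% of the BKO list of 56, and the differences of the 2 genotypes had a Pearson r of 0.90 over the 80 rows and 0.85 over all genes. Over all genes the shared calls were 69.3% and 79.8% of the 2 lists, and rises in both genotypes took in 67.5% of the rows and 19% of all genes.

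Cell type markers differed between these groups too. In FF 6 of the 8 summed lists did not overlap between fasted mice at room temperature and in the cold. Brown adipocyte markers were 3780 to 4610 FPKM at room temperature and 5270 to 5600 in the cold, erythroid markers 226 to 266 and 450 to 547, lymphocyte markers 3.51 to 4.05 and 13.7 to 33.4, and endothelial markers 213 to 234 and 241 to 275. Fibroblast markers were lower in the cold, at 108 to 124 against 143 to 163 FPKM, as were macrophage markers, at 81.2 to 104 against 105 to 125. In BKO 3 of 8 lists did not overlap, with erythroid markers at 158 to 292 FPKM and 427 to 996, lymphocyte markers at 3.75 to 5.35 and 13.4 to 18.3, and fibroblast markers at 130 to 146 and 111 to 120. Brown adipocyte markers overlapped in BKO, at 4520 to 5400 and 5290 to 6980. The part of these markers in the higher levels was not tested.

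Mrps27 was at 49.4, 47.2 and 56.2 FPKM in FF and at 47.9, 47.7 and 57.6 in BKO in cold plus fasting, at group means of 280% and 245% of the fasted level. Its log2 difference from fasted mice was 1.44 ± 0.10 in FF (adjusted p = 3.89e-10) and 1.25 ± 0.10 in BKO (adjusted p = 4.88e-09). Mrps22 read 30.9, 30 and 30.1 in FF and 32.2, 34.2 and 37.5 in BKO, 1.11 ± 0.11 and 1.21 ± 0.11 above fasted. Mrps6 read 58.1, 54.5 and 62.2 in FF and 67.6, 58.2 and 70.1 in BKO, 1.11 ± 0.09 and 0.93 ± 0.09 above fasted. For these 3 genes no fasted library overlapped with any library of the fasted mice in the cold. They were picked among the largest differences of this comparison, so this separation is partly built in and adds no support.

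Mrpl12 read 156, 157 and 156 FPKM in FF and 145, 157 and 215 in BKO, 1.06 ± 0.14 and 0.66 ± 0.14 above fasted (adjusted p = 1.28e-06 and 0.000425). Mrpl47 read 20.5, 17.9 and 18.9 in FF and 18.8, 19.8 and 19.8 in BKO, 1.10 ± 0.10 and 1.02 ± 0.10 above fasted. The 1 row that was lower in FF was Mrpl41, found only in mitochondria, at 65.8, 55.7 and 76.7 FPKM fasted and 53.0, 50.7 and 51.7 in cold plus fasting. Its log2 difference was -0.33 ± 0.11 in FF (adjusted p = 0.0177) and -0.06 ± 0.11 in BKO (adjusted p = 0.672), where the libraries were 60.7, 60.6 and 66.4 fasted and 54.7, 52.3 and 74.5 in cold plus fasting.

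**Figure D3:**
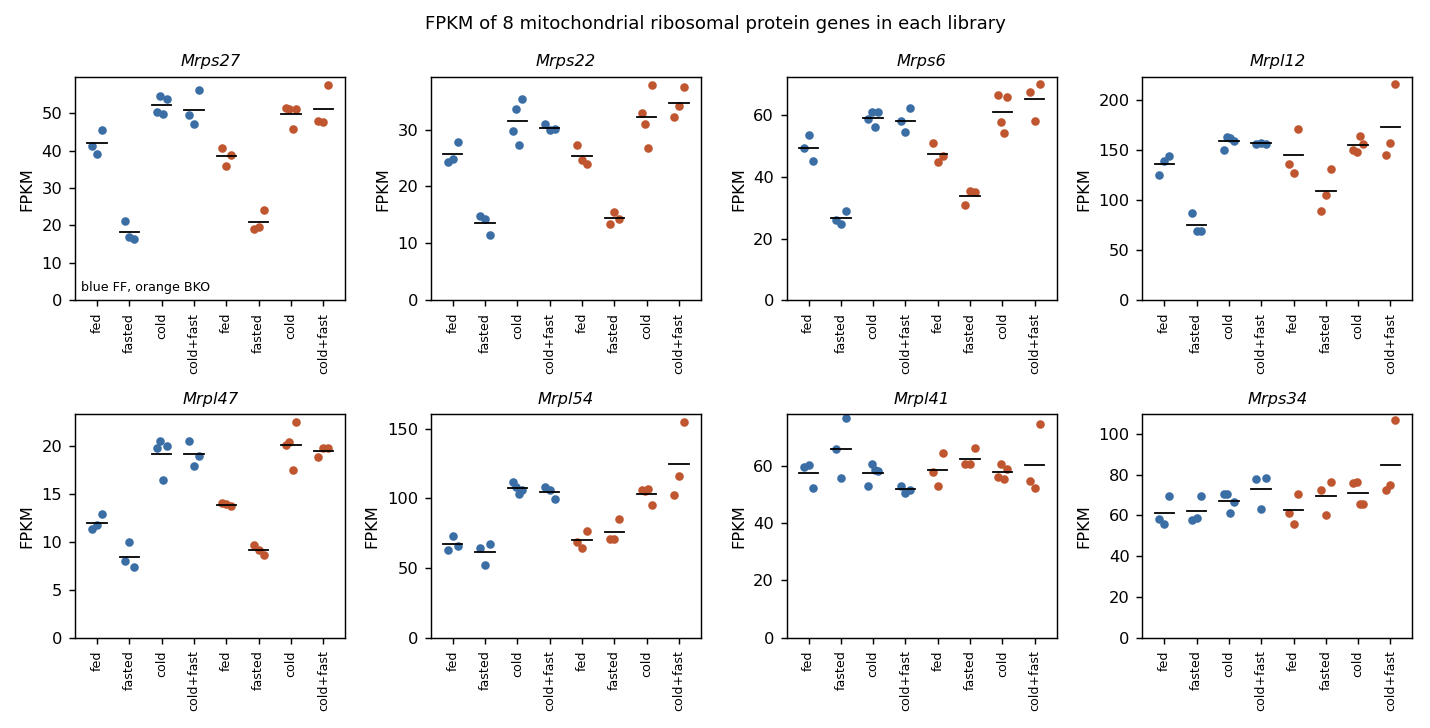
FPKM of 8 members in each library (points) with the group mean (line), FF in blue and BKO in orange. Mrps27, Mrps22, Mrps6, Mrpl12 and Mrpl47 are lowest in the fasted groups, Mrpl54 is higher in both cold groups, and Mrps34 and Mrpl41 vary less between groups.

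Of the 80 rows, 7 fell with fasting in both genotypes and rose with cold in both, namely Mrpl20, Mrpl36, Mrpl46, Mrpl47, Mrps2, Mrps6 and Mrps27, which is 8.75% against 2.13% of all genes. Mrpl46, found only in mitochondria, was at 27.1, 30.2 and 33.8 FPKM in FF fed, 22.6, 21.7 and 22 fasted and 42.4, 45.2, 39.4 and 41.6 in cold. These 3 groups did not overlap, which is partly built in by the choice of the 7 rows. In BKO it was at 36.3, 36.1 and 34.1 fed, 27.3, 27.3 and 31.5 fasted and 45.1, 46.6, 40.8 and 48.2 in cold, also without overlap. Its head-to-head neighbour Mrps11 fell with fasting in both genotypes and passed in neither for cold, at 22.2, 23.4 and 25 FPKM in FF fed, 20, 17 and 17.5 fasted and 28, 29.2, 24.2 and 26.4 in cold. Exons of the 2 genes overlap on opposite strands, and whether the counting used strand is not given in the sources used here.

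**Figure D4:**
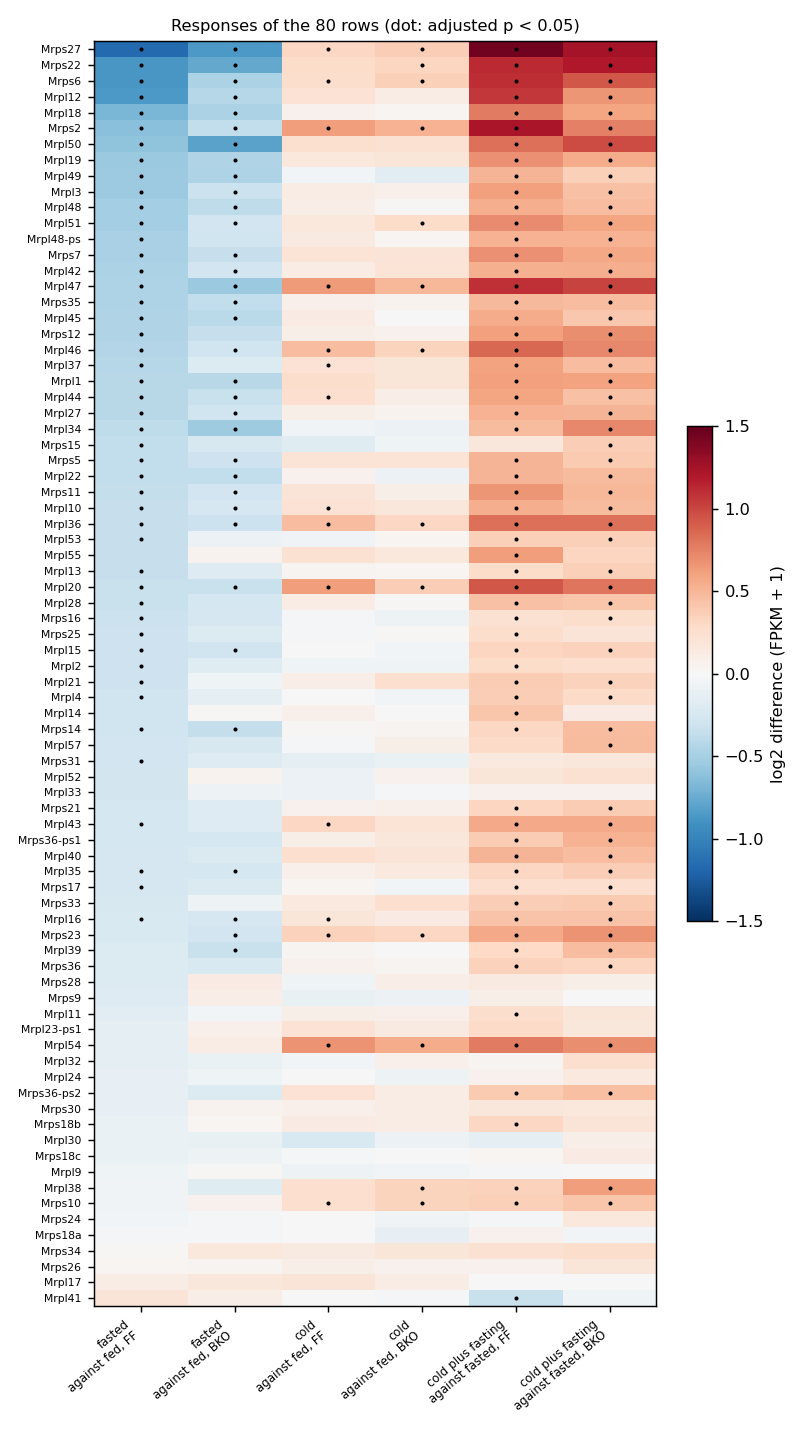
Log2 differences of FPKM + 1 (colour scale, blue lower and red higher) of the 80 rows in 6 comparisons, sorted by the fasting difference in FF. A black dot marks an adjusted p under 0.05. The first 2 columns hold 47 and 34 dots, all on falls, and the last 2 hold 61 and 56.

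The motifs shown above can be set beside these responses. Of the 13 with an NRF1 match 3 fell with fasting in FF, with a median log2 difference of -0.21, and of the 54 without one 38 fell, with a median of -0.34. In BKO these counts were 4 and 27. Of the 12 with an ETS match 8 fell in FF and 7 in BKO, and of the 55 without 33 and 24. Of the 12 with a YY1 match 9 and 7 fell, and of the 55 without 32 and 24. Of the 7 with a KLF match 5 fell in each genotype, and of the 60 without 36 and 26. These counts are descriptions of windows, without a test.

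Between the genotypes, members passed the test in the fasted mice and in the average of conditions, and the counts moved with the processing. With food at room temperature, 0 of 80 rows passed between BKO and FF (0.22% of all genes), with 5 at an unadjusted p under 0.05, all higher in BKO, which is 6.25% against 5.84% of all genes in either direction. With array weights 6 rows passed in this comparison. In cold the count was also 0 (0.402% of all genes), with 0 at an unadjusted p under 0.05 (3.76% of all genes), and in cold plus fasting 0 (0.236%), with 7 (8.75% against 5.74%). Between fasted mice 7 rows were higher in BKO and 0 lower, 8.75% against 4.53% of all genes that were higher. These were Mrpl55, Mrpl12, Mrps2, Mrpl46, Mrps6, Mrpl18 and Mrpl37. Mrpl55 was at 42.6, 34.7 and 41.4 FPKM in FF and 55.3, 54.8 and 65.5 in BKO, with a log2 difference of 0.55 ± 0.16 (adjusted p = 0.0292). Mrpl12 was 0.52 ± 0.14 higher and Mrps2 0.41 ± 0.10 higher (adjusted p = 0.0195 and 0.0155). In each of the 7 all BKO libraries lay above all FF libraries, as in 12.1% of all genes. The 7 were picked by a test on these same libraries, so their separation is partly built in and adds no support. These 3 FF libraries are numbered 1 to 8 and the 3 BKO libraries are not. With quantile normalization 21 rows passed. With the library number set as a covariate, 0 rows passed. That covariate is estimated from FF fed and FF cold alone, the only groups with libraries of both sets, which widens the error. The count of 0 therefore cannot separate genotype from set. Of the fits with 1 library left out, 2 rows passed without FF fasted replicate 2 or 3, 4 without BKO fasted replicate 2 and 1 without BKO fasted replicate 3. Of the 8 summed marker lists, endothelial markers were higher in BKO fasted than FF fasted, at 241 to 276 against 213 to 234 FPKM, and macrophage markers lower, at 87.2 to 99.7 against 105 to 125, and the other 6 overlapped. Their part in the difference was not tested.

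Averaged over the 4 conditions, 5 rows were higher in BKO and 0 lower, 6.25% against 1.26% of all genes that were higher. They were Mrpl46 at 0.23 ± 0.05, Mrpl20 at 0.19 ± 0.05, Mrps18a at 0.18 ± 0.04, Mrpl22 at 0.18 ± 0.05 and Mrpl43 at 0.17 ± 0.04 on the log2 scale. With the library number set as a covariate 0 passed here too, under the same limit, while 9 passed with quantile normalization and 21 with array weights. With 1 library left out, 12 rows passed without replicate 1 of the BKO group in cold plus fasting. Only 3 passed without replicate 2 or 3 of the FF group or replicate 3 of the BKO group in cold plus fasting, FF fed replicate 1, FF fasted replicate 3 or BKO fasted replicate 3.

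The rest of the mitochondrial translation machinery was examined for the same responses. Of all genes tested, 19.4% fell and 18.1% rose with fasting in FF, and 14.6% fell and 12.9% rose in BKO, and the shares of each list are given to be read against these. Ribosomal proteins that carry other symbols were Dap3, Ptcd3, Chchd1, Aurkaip1, Gadd45gip1 and Mrpl58 (listed as Ict1), of which 3 of 6 (50%) fell with fasting in each genotype. Ptcd3 went from 26, 26.9 and 27.6 FPKM to 22, 20.3 and 18 in FF, and Dap3, a GTP-binding protein of the small subunit, was at 49.8, 53.7 and 51.1 fed and 48.3, 43.8 and 49.0 fasted without passing (adjusted p = 0.199). Ict1, a peptidyl-tRNA hydrolase built into the large subunit, fell to 25.2 ± 3.89 from 39.1 ± 2.32 FPKM (n = 3 each) in FF and to 30.4 ± 1.85 from 38.9 ± 1.31 in BKO.

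Of 20 translation factors and activators tested, 16 (80%) fell with fasting in FF and 11 (55%) in BKO, and 0 rose. Taco1, an activator of cytochrome oxidase subunit 1 translation, fell from 35.2 ± 4.41 to 17.1 ± 1.79 FPKM (n = 3 each) in FF and from 41 ± 0.789 to 21.6 ± 0.941 in BKO. Gfm2, which recycles the ribosome, had a log2 difference of -0.73 ± 0.10 in FF and -0.62 ± 0.10 in BKO. Of 20 aminoacyl-tRNA synthetases and amidotransferase subunits, 15 (75%) fell in FF and 11 (55%) in BKO, and 0 and 1 rose. Sars2, the seryl enzyme, went from 10.8 ± 2.14 to 4.59 ± 0.707 FPKM in FF and from 10.9 ± 0.553 to 5.44 ± 0.908 in BKO.

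Of 30 ribosome assembly factors 10 (33.3%) fell and 3 (10%) rose with fasting in FF. In BKO 5 (16.7%) fell, a share near that of all genes, and 1 (3.33%) rose. Ddx28, a helicase of large-subunit assembly, rose by 0.68 in FF and 0.78 in BKO on the log2 scale, and Mettl17 fell by 0.68 and 0.65. Of 26 genes of mitochondrial DNA expression 8 (30.8%) fell and 5 (19.2%) rose in each genotype, with Mterf2, a transcription termination factor family member, down from 8.28 ± 0.752 to 2.63 ± 0.98 FPKM in FF and from 9.74 ± 0.589 to 4.3 ± 0.266 in BKO. Mitochondrial ribosomal RNAs and messenger RNAs were not analysed here.

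The factors whose motifs were searched were themselves measured. Nrf1, Gabpa, Yy1 and Esrra are named here because of the motifs, and Atf5 and Ppargc1a were chosen after their values were seen. NRF1 and GABPA activate nuclear genes of mitochondrial proteins. Of 13 transcriptional regulators of mitochondrial genes, 6 (46.2%) rose and 2 (15.4%) fell with fasting in FF and 1 (7.69%) rose and 2 (15.4%) fell in BKO. Nrf1 was higher in FF fasted than fed, at 5.74 ± 1.14 against 4.14 ± 0.346 FPKM (n = 3 each, adjusted p = 0.0156), and at 5.36 ± 0.817 against 4.22 ± 0.802 in BKO (adjusted p = 0.076). Gabpa, the ETS factor, was at 17 ± 4.39 against 19 ± 1 FPKM in FF (adjusted p = 0.376) and 22.2 ± 2.14 against 21.2 ± 2.52 in BKO (adjusted p = 0.805). Yy1 was at 19.6 ± 0.736 against 16.9 ± 1.54 FPKM in FF (adjusted p = 0.124) and 17.9 ± 1.87 against 15.6 ± 0.666 in BKO (adjusted p = 0.19). With fasting, none of these 3 genes had a called fall in either genotype. Esrra, the oestrogen-related receptor alpha, fell in FF from 69.8 ± 14.5 to 44.5 ± 9.15 FPKM (adjusted p = 0.00621) and was at 79.1 ± 13.3 fed and 65.7 ± 12.2 fasted in BKO (adjusted p = 0.273). Atf5, a factor of the mitochondrial stress response, fell from 121 ± 39.2 to 44.7 ± 2.41 FPKM in FF and from 96.9 ± 11.8 to 48.8 ± 5.74 in BKO (adjusted p = 2.61e-07 and 2.98e-05). In cold plus fasting Atf5 was at 192 ± 16.7 FPKM in FF and 206 ± 23.3 in BKO. Ppargc1a, a coactivator of mitochondrial biogenesis, rose with fasting in FF from 12.5 ± 3.8 to 33.4 ± 4.21 FPKM (adjusted p = 0.00476), and was at 15.8 ± 9.09 fed and 14.2 ± 5.1 fasted in BKO, which did not pass the test. The difference between the genotypes' fasting responses passed for 0 of the 13 regulators.

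Another 2 gene families were set beside the members. Both were picked by symbol, so not every row need be a subunit. The respiratory chain rows include the pseudogene rows Atp5k-ps2, Uqcrh-ps1 and Uqcrh-ps2. The cytosolic rows include like-named genes such as Rpl7l1, Rpl39l and Rps4l. Of 86 rows of nuclear-encoded respiratory chain subunits 20 fell with fasting in FF and 2 in BKO, with medians of -0.17 and -0.0017. These are 23.3% in FF, near the 19.4% of all genes, and 2.33% in BKO, below the 14.6% of all genes, where the members had 47 and 34 of 80 and medians of -0.31 and -0.24. Of 77 cytosolic ribosomal proteins 5 rose and 2 fell in FF and 18 rose and 0 fell in BKO, with medians of 0.12 and 0.22. The rises are 6.49% and 23.4%, against 18.1% and 12.9% of all genes. With cold 4 of them rose and 33 (42.9%) fell in FF, and 3 rose and 19 (24.7%) fell in BKO, where 10.3% and 6.5% of all genes fell. Between fasted mice at room temperature and in cold, 39 respiratory chain subunits rose and 2 fell in FF and 35 rose and 1 fell in BKO, while 50 and 42 cytosolic ribosomal proteins fell and 6 and 5 rose. The higher shares are 45.3% and 40.7% of the respiratory chain subunits, against 26% and 22.9% of all genes, and the lower shares 64.9% and 54.5% of the cytosolic ribosomal proteins, against 25.9% and 22.2%. No test of one family against another was run.

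**Figure D5:**
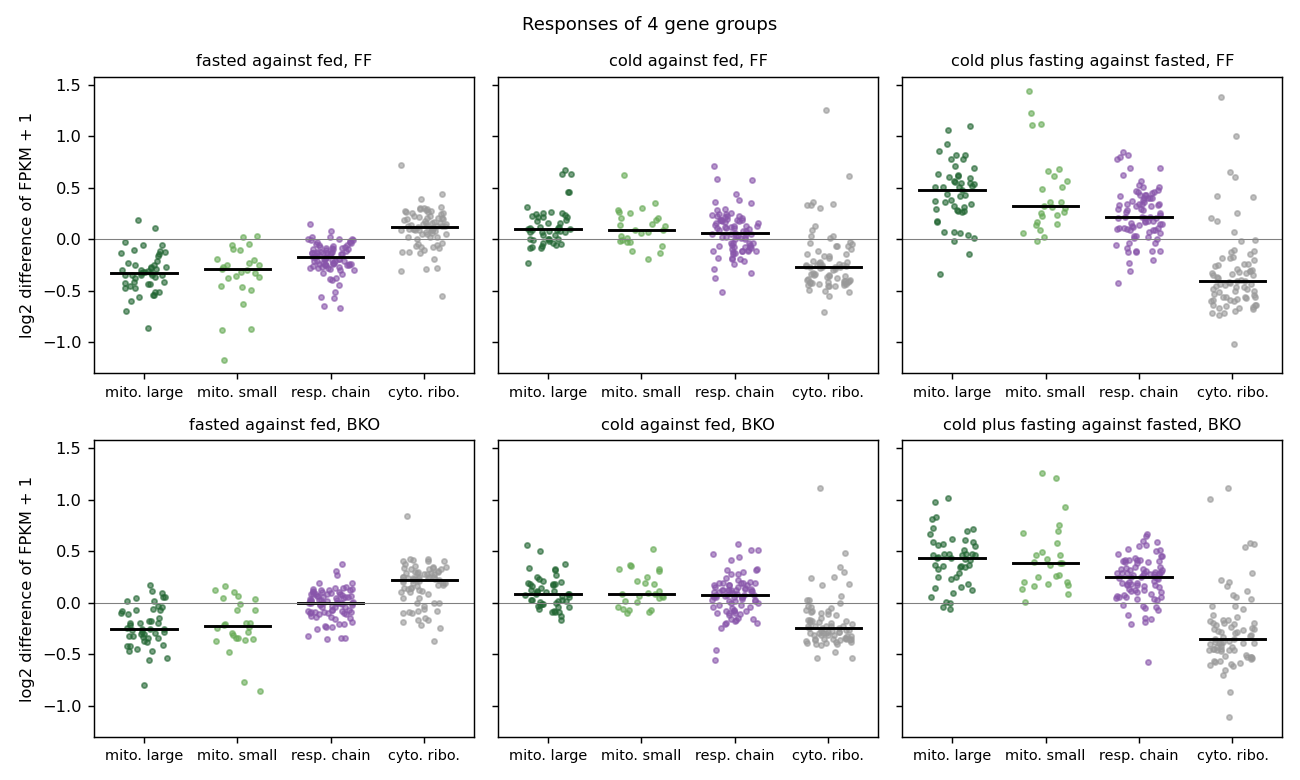
Log2 differences of FPKM + 1 of single genes (points) and group medians (lines) in 6 comparisons, for the large (49 rows) and small (26) mitochondrial ribosomal subunits, nuclear respiratory chain subunits (86) and cytosolic ribosomal proteins (77). Fasting medians in FF are -0.33, -0.29, -0.17 and 0.12 in that order.

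Some rows are uncertain because of related sequences. Mrpl23, the parent gene, was at no more than 0.531 FPKM while its processed pseudogene row Mrpl23-ps1 was at 33.6 to 64.4, so the level at the pseudogene row may include reads of the parent. The other pseudogene rows are Mrps36-ps1, Mrps36-ps2 and Mrpl48-ps, beside Mrps36 and Mrpl48. Mrps36, now known as a component of the oxoglutarate dehydrogenase complex, was at 49.2, 56.8 and 52.4 FPKM in FF fed and 51.6, 40.6 and 45.4 fasted, a difference of -0.20 ± 0.10 that did not pass (adjusted p = 0.126). Without the 4 pseudogene rows, 46 of 76 fell with fasting in FF and 34 in BKO. Of the 82 matching symbols, 16 overlap an exon of another gene on the opposite strand and 5 on the same strand.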

How the data were processed

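RNA sequencing of mouse brown adipose tissue gave 26 libraries in 8 groups, placed in their groups by their labels. The authors deposited FPKM values per gene; per the submitters' processing notes STAR, Cufflinks and Cuffdiff were used on mm10, with versions and strand settings not given in the sources used here. Depth is therefore unknown, and no counting interval can be given. Values were analysed as log2(FPKM + 1), which understates the change of low genes. A gene was kept if 3 or more libraries had 1 FPKM or more, and 33 genes with zeros that look like failed estimates were left out, none of them a member, which left 12702. A model of 8 group means was fitted with limma 3.58.1 (intensity trend) in R 4.3.3, with Benjamini-Hochberg adjustment over all genes in each comparison and a threshold of 0.05. The code was tested on simulated data. Positions and overlaps come from GENCODE on GRCm38, start-site windows from RefSeq on GRCm38.p6.

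The members and the gene lists were chosen with earlier results of these data known. Genes named in the text were 15 set by name, in each comparison up to 8 of the largest rises and 8 of the largest falls among members that passed, the 4 highest and 4 lowest members, up to 3 genes per direction of each list of the mitochondrial translation machinery, and rows at the threshold. Genes overlapping a member were named for that reason, and others are said to be chosen after their values were seen. Alternatives were a pseudocount of 0.1 FPKM, no filter, a mean of at least 5 FPKM, median-of-ratios scaling, quantile normalization, array weights, the library number set as a covariate, the libraries numbered 15 to 32 alone, and each library left out.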

Additional observations from a re-analysis of the deposited data

Results flagged for a closer look

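The members with the largest called differences were checked, in the groups of 4 libraries, for a library that stood apart. In 6 of 48 checks the gap of a library to the nearest one was above Dixon's 95% limit of the group's range. Other members named in the text were not checked. Chance gives about 1 in 20 for independent checks, which these are not, since they use the same libraries. All 6 were in the BKO cold group. In replicate 3, Mrps27 was at 45.9 FPKM against 51.2 to 51.3 in the others, Mrpl49 at 20.7 against 25.1 to 25.7, and Mrpl22 at 26.5 against 30.9 to 31.1. In replicate 4, Mrpl54 was at 94.9 FPKM against 105 to 107, and Mrpl43 at 50 against 47.6 to 47.7. In replicate 2, Mrps18a was at 105 FPKM against 86 to 87.4.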

How the results depend on the processing

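Of the recomputed counts of called members, 573 stayed within 1.5 times of the value reported and 34 did not. The 573 include many counts of 0 that stayed at 0, in comparisons where no row passed. The falls with fasting, of 47 rows in FF and 34 in BKO, stayed within that range under every alternative that could be run. So did the 56 rises of BKO mice in cold plus fasting against fasted. For fasting in FF the libraries numbered 15 to 32 alone could not be used, since every FF fasted library is numbered 1 to 8. With array weights the counts were 6 for BKO against FF fed, 21 for the average of genotypes, 40 for cold in FF, 23 for cold in BKO, 38 for cold plus fasting against fed in FF and 29 in BKO. With quantile normalization they were 21 for BKO against FF fasted and 9 for the average. With the library number set as a covariate they were 0 for BKO against FF fasted, 0 for the average, 5 for cold plus fasting against fed in FF and 39 for cold plus fasting against fasted in FF. With libraries numbered 15 to 32 alone they were 0 for cold in FF and 1 for cold plus fasting against fed in FF. The causes were not tested. Leaving out 1 library at a time gave 1 to 10 for BKO against FF fasted, 3 to 12 for the average, 36 to 52 and 24 to 39 for fasting in FF and BKO, 8 to 17 and 6 to 16 for cold, 6 to 14 and 10 to 27 for cold plus fasting against fed, and 49 to 62 and 47 to 60 for cold plus fasting against fasted. With each library left out in turn, 29 of the 47 falls with fasting in FF and 20 of the 34 in BKO passed every time. Calls of single genes were recomputed for the members with the largest called differences, up to 8 per direction in each comparison. Of these recomputed calls, 2489 still passed, 100 no longer passed and 0 reversed. Other genes named in the text are not in these counts. No paired analysis was possible because the labels give no replicate numbers shared between groups. Unknown depth and groups of 3 or 4 libraries limit what small differences can show.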
